A study of Ovis aries with 10 samples.

Results

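The group of microRNAs (miRNAs) named after miR-15 and miR-107 was represented on a custom ovine array by 3 probes, oar-miR-16b, oar-miR-103 and oar-miR-107, out of 152 ovine miRNA probes. These members were chosen by probe name. No probe carried any of 9 other names of the group (miR-15a, miR-15b, miR-16, miR-16a, miR-195, miR-424, miR-497, miR-503 and miR-646). Lung tissue came from 5 female merino sheep given as aged 9 months, numbered 2, 3, 6, 7 and 10 in the labels. Each sheep gave 1 caudal lung segment labelled Normal and 1 labelled Fibrosis, so that 10 arrays were compared in 5 pairs. In the model, bleomycin, a drug that injures the lung, was infused in repeated doses into one caudal segment and saline into the opposite one, the animals were killed 4 weeks on per the labels, and the study selected the 5 animals with the most severe fibrosis. The saline segment is an internal control within a treated animal and not lung from an untreated sheep. The labels give the left segment as Fibrosis in sheep 2 and 3 and the right one in sheep 6, 7 and 10, whereas the study's methods place bleomycin on the left throughout, and the labels were used here.

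miRNAs are short RNAs that lower the output of messenger RNAs, which they recognise mainly through the seed, a short stretch near their 5′ end. Its members share a core of bases in this region, and miR-103 and miR-107 have nearly identical sequences. The group is known for restraining cell cycle genes, with miR-16 acting on cyclins and on BCL2, while miR-103 and miR-107 act on DICER1, the enzyme that matures miRNAs, and on metabolic genes. miR-16 and miR-103 are also widely used as reference miRNAs in quantitative PCR (qPCR), and miR-103 had that role in this study. In the RefSeq gene table of the sheep assembly ARS-UI_Ramb_v3.0, MIR16B lies within the span of SMC4, a condensin subunit gene. MIR103 lies within PANK3 and MIR107 within PANK1, both genes of pantothenate kinases, which start coenzyme A synthesis. The 3 genes thus stand apart in the genome. The array build is not given in the sources used here, so no coordinates are given.

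Each deposited value was an intensity on a linear scale, averaged by the authors over 21 spots. The summed intensity of the 152 probes lay between 138979 and 146225 on the 10 arrays, a ratio of 1.05 between the highest and lowest. The control probes varied far more between arrays, and the summed intensity of the 12 probes for 5S ribosomal RNA ran from 33415 to 580864. A mean log2 signal of at least 5 was reached by 59 of the 152 probes, which are called bright below. Among the marker lists, 1 of 7 names for blood and lymphocytes, 3 of 6 for muscle and mesenchyme, 3 of 6 for epithelium and 0 of 1 for endothelium matched a probe. The summed intensity of the epithelial probes was 2400 to 4319 in Normal and 3496 to 6712 in Fibrosis segments. The corresponding ranges were 5601 to 20089 and 8526 to 16306 for muscle and mesenchyme. The brightest probe in that sum was oar-miR-143, at 4395 to 18181 in Normal and 6509 to 14384 in Fibrosis segments. The log2 fold changes of its probes differed in sign, with 0.056 for oar-miR-143, 0.49 for oar-miR-199a-3p and -0.86 for oar-miR-133. For miR-150, the only lymphocyte marker, the ranges were 445 to 2107 in Normal and 309 to 1985 in Fibrosis segments. The part of cell composition in the results was not tested, and in bulk tissue fewer cells of a type and less RNA per cell cannot be told apart.

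The 3 members gave steady signals in every segment, and none of them passed the test used here for a difference between Fibrosis and Normal. The study itself lists oar-miR-16b and oar-miR-103, but not oar-miR-107, as upregulated, by a test run in each sheep separately. In sheep 2, oar-miR-16b read 7278 on the Normal and 8042 on the Fibrosis side. Sheep 3 gave 7239 and 6726, sheep 6 gave 6802 and 7886, sheep 7 gave 6856 and 7288, and sheep 10 gave 6542 and 5985. The Fibrosis segments held both the highest (sheep 2) and the lowest (sheep 10) value, and all 5 Normal segments lay between them. The mean intensity was 6943 ± 312 for Normal (SD, n = 5) against 7185 ± 850 for Fibrosis segments (SD, n = 5).

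oar-miR-103, the qPCR reference, read 688 on the Normal and 870 on the Fibrosis side of sheep 2. Sheep 3 gave 873 and 920, sheep 6 gave 787 and 851, sheep 7 gave 819 and 847, and sheep 10 gave 880 and 811. The Normal segment of sheep 2 was the lowest of the 10, and sheep 10 alone was lower on the Fibrosis side. The means were 809 ± 77.9 for Normal (SD, n = 5) against 860 ± 39.9 for Fibrosis segments (SD, n = 5). oar-miR-107 read 737 on the Normal and 955 on the Fibrosis side of sheep 2. Sheep 3 gave 960 and 1011, sheep 6 gave 824 and 902, sheep 7 gave 894 and 914, and sheep 10 gave 895 and 875. It had the same direction as oar-miR-103 in all 5 sheep, and the groups overlapped for each of the 3 members. Its means were 862 ± 84.8 for Normal (SD, n = 5) against 931 ± 53.3 for Fibrosis segments (SD, n = 5). Over all probes, 2 of 152 (1.32%) had groups that did not overlap.

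**Figure D1:**
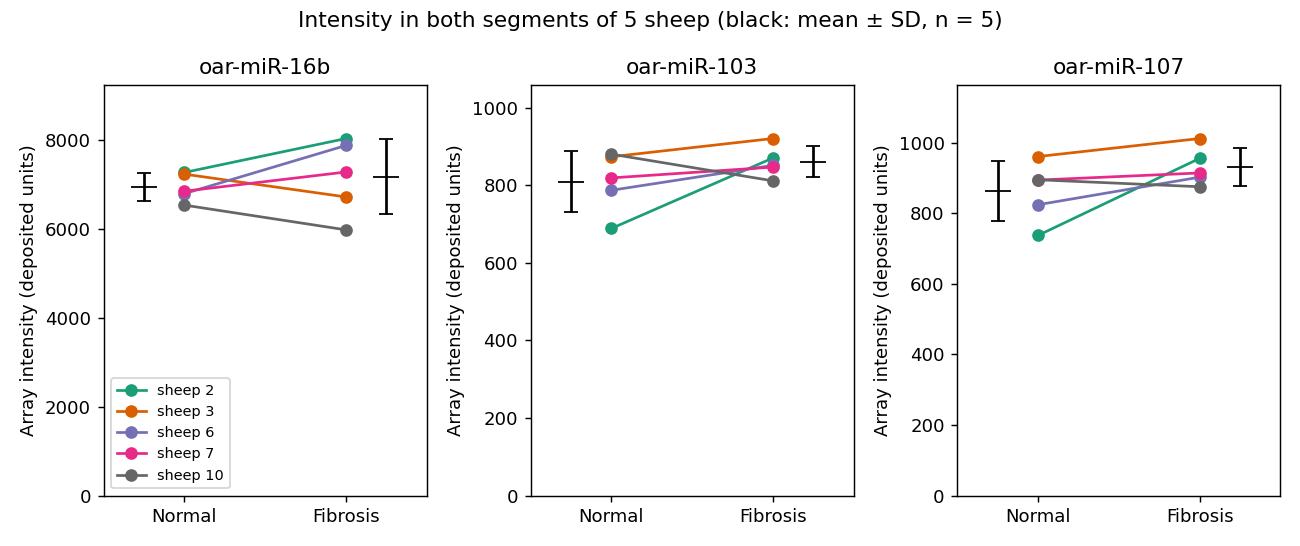
Intensity (deposited linear units, axes from 0) of oar-miR-16b, oar-miR-103 and oar-miR-107 in the Normal and the Fibrosis segment of 5 sheep, 1 line per sheep, with the mean and SD of each group in black. Lines run between 5985 and 8042 for oar-miR-16b, and the low Normal value of sheep 2 is seen for oar-miR-103 (688) and oar-miR-107 (737).

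As a share of the summed intensity of its array, oar-miR-16b held 4.31% to 5.60%, oar-miR-103 held 0.494% to 0.648% and oar-miR-107 held 0.529% to 0.712%. Brighter mean log2 signals were seen for 3 probes in the case of oar-miR-16b, 33 for oar-miR-103 and 31 for oar-miR-107. This is an order of signal, which also depends on each probe, and not of molecules.

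The spread over the 10 arrays was small for all 3. The log2 signal of oar-miR-103 had a mean of 9.70 and an SD of 0.12 over the 10 arrays, and its highest intensity was 1.34 times its lowest. oar-miR-16b had a mean of 12.78 and an SD of 0.13, with a ratio of 1.34. oar-miR-107 had a mean of 9.80 and an SD of 0.13, with a ratio of 1.37. Among the 59 bright probes these were the 3 smallest SDs on the deposited scale, in the order oar-miR-103, oar-miR-16b and oar-miR-107, of which the last 2 differed only in the fourth decimal (0.1267 and 0.1269). The median SD of the bright probes was 0.41, with quartiles of 0.26 and 0.59. Over all 152 probes, only oar-miR-411b-3p and oar-miR-654-3p had smaller SDs than the members, both with a mean log2 signal of at most 0.021, at or next to the floor of 1 set before taking logarithms. These ranks are a description of 10 arrays and carry no test.

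**Figure D2:**
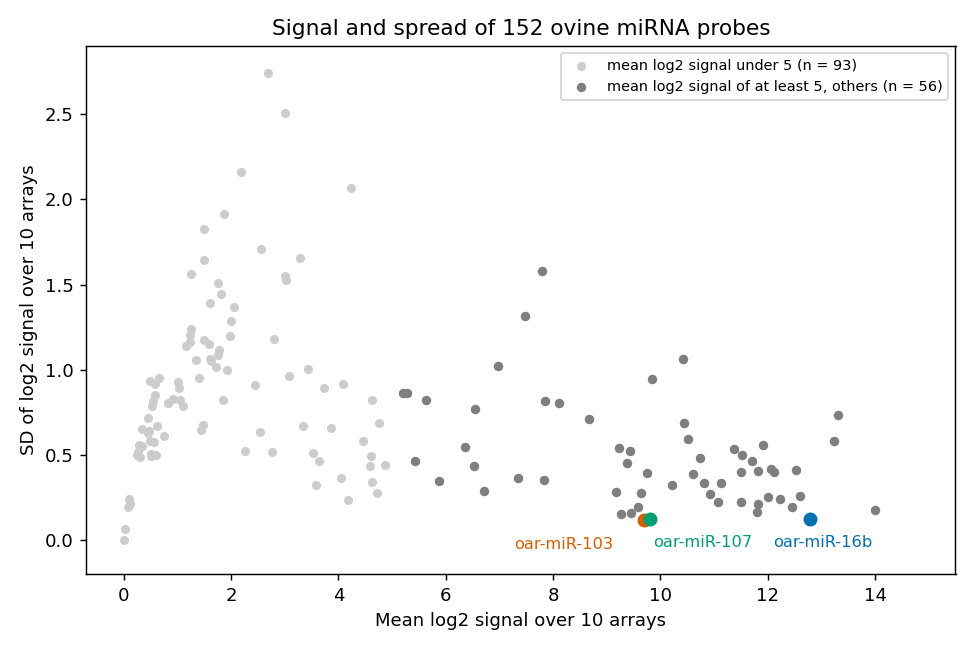
SD against mean of the log2 signal over 10 arrays for each of 152 ovine miRNA probes, with probes of a mean log2 signal under 5 in light grey and the 3 members in colour. The members lie at the lower edge of the bright probes, with SDs between 0.12 and 0.13.

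The rank rested on the scaling of the arrays. With the control probes used to centre each array, the SDs of the members were 0.63 to 0.67, and 24, 26 and 28 bright probes had smaller SDs than oar-miR-16b, oar-miR-103 and oar-miR-107, respectively. Centring on the miRNA median gave counts of 0, 4 and 1 in the same order, centring on the 75th percentile 5, 3 and 4, and quantile normalization 9, 1 and 3. A measure that needs no scaling is the SD of the log2 ratio between a pair of probes on the same array, averaged over all other bright probes, the quantity that geNorm uses to rank reference genes. It was 0.5053 for oar-miR-16b, 0.5053 for oar-miR-103 and 0.5081 for oar-miR-107, the 3 lowest of 59, against a median of 0.63. For oar-miR-103 and oar-miR-107 the average includes their ratio to each other, whose SD of 0.036 lowers both, so their ranks are not independent. By the SD of the 5 within-sheep differences, 5, 7 and 6 bright probes were steadier than oar-miR-16b, oar-miR-103 and oar-miR-107.

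The groups contributed to the spread in different ways. For oar-miR-16b the SD of the log2 signal was 0.065 in Normal and 0.18 in Fibrosis segments. For oar-miR-103 it was 0.14 in Normal and 0.066 in Fibrosis segments, and for oar-miR-107 it was 0.15 and 0.081. Thus the Fibrosis segments were the more variable ones for oar-miR-16b, and the Normal segments for the other members, where sheep 2 had the lowest value. This difference between the groups was not tested.

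Of 8 names of other miRNAs that often serve as references, 4 had a probe, and these are given for comparison. oar-miR-191 had an SD of 0.17 over the 10 arrays, rank 6 of the 59 bright probes, and oar-miR-25 had 0.20, rank 9. oar-miR-26b had 0.40, rank 29, and oar-let-7a, of the let-7 family that restrains growth genes, had 0.41, rank 31. On the deposited scale all 4 had a mean change below 0 in Fibrosis segments, between -0.23 for oar-miR-25 and -0.067 for oar-miR-26b, with a median of -0.11, and 0 of the 4 passed an unadjusted p under 0.05. A mean change below 0 was also seen for 81 of all 152 probes and for 32 of the 59 bright ones. The median log2 fold change was -0.021 over all 152 probes and -0.066 over the bright ones.

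The paired comparison asked whether a member differed between the segments of 1 animal. The log2 fold change of Fibrosis over Normal was 0.042 for oar-miR-16b (limma SE 0.12, adjusted p = 0.840), 0.091 for oar-miR-103 (SE 0.12, adjusted p = 0.723) and 0.12 for oar-miR-107 (SE 0.12, adjusted p = 0.615). In limma with the sheep as a block, 0 of the 3 members and 0 of all 152 probes (0%) passed a Benjamini-Hochberg adjusted p under 0.05. An unadjusted p under 0.05 was reached by 18 of 152 probes (11.8%) and by none of the members. The unadjusted p of the members was 0.735, 0.480 and 0.373 in the order above.

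The 95% intervals from limma show which changes the data leave possible. They ran from -0.26 to 0.34 for oar-miR-16b, from -0.21 to 0.39 for oar-miR-103 and from -0.18 to 0.42 for oar-miR-107. limma pools the spread of all probes, many of them dim and variable. With the pooled spread allowed to depend on signal, the intervals were -0.16 to 0.25, -0.13 to 0.31 and -0.096 to 0.33.

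Within animals, the log2 difference of oar-miR-16b was 0.14 for sheep 2, -0.11 for sheep 3, 0.21 for sheep 6, 0.088 for sheep 7 and -0.13 for sheep 10. It was higher in the Fibrosis segment of 3 of 5 sheep (exact permutation test by sign flips over the sheep, two-sided, p = 0.625). oar-miR-103 differed by 0.34, 0.076, 0.11, 0.048 and -0.12 in the same order of sheep, higher in 4 of 5 (exact permutation p = 0.3125). oar-miR-107 differed by 0.37, 0.075, 0.13, 0.032 and -0.032, also higher in 4 of 5 (exact permutation p = 0.125). With 5 pairs this exact test cannot go below p = 0.0625. Of all probes, 35 of 152 (23%) were higher in at least 4 sheep. Sheep 2 had the largest difference for oar-miR-103 and oar-miR-107, and without sheep 2 the mean changes were 0.030 and 0.051. oar-miR-16b was at 0.017 without sheep 2 and at -0.00055 without sheep 6.

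The sign of these small changes depended on the scaling between arrays. Centring on the miRNA median shifted the median of all probes by -0.16, and the members were then at -0.11 for oar-miR-16b, -0.064 for oar-miR-103 and -0.039 for oar-miR-107. Centring on the control probes shifted that median by 0.26, and the members were at 0.30, 0.35 and 0.37. Centring moves all probes of an array by the same amount. The distance of the members above the median of all probes, 0.063 to 0.14, is therefore fixed under both of these and under the 75th percentile, and carries no support. After quantile normalization oar-miR-16b was at -0.23, or -0.21 relative to the median, while oar-miR-103 and oar-miR-107 were at 0.098 and 0.040. No member passed an adjusted p under 0.05 under any of the 4 scalings.

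**Figure D3:**
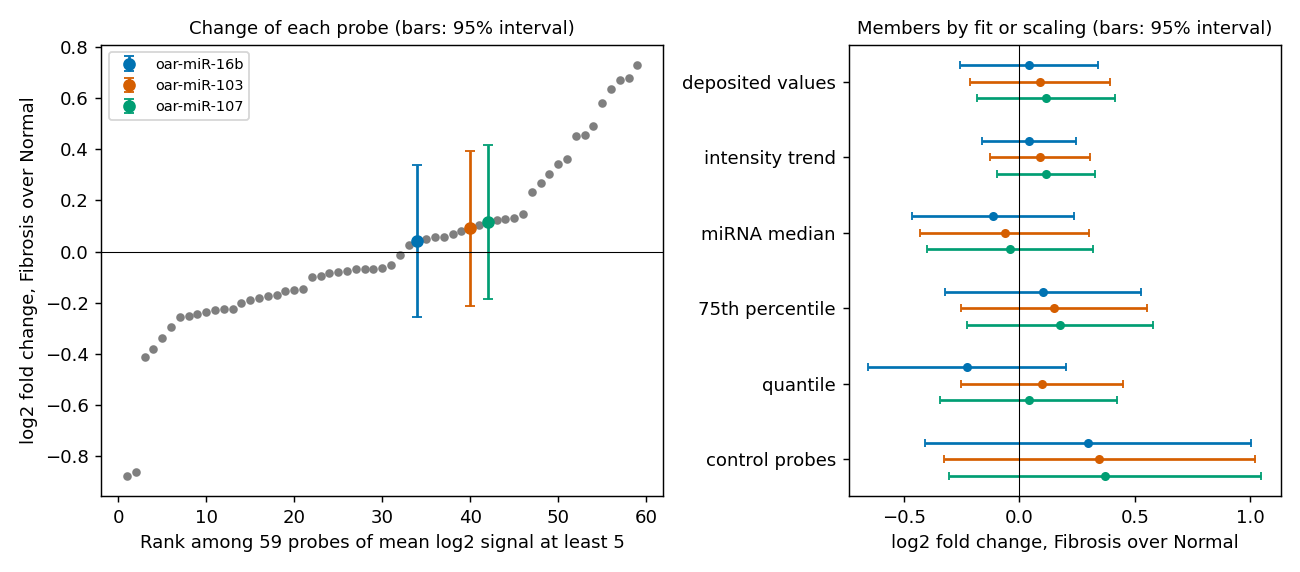
Left, log2 fold change of Fibrosis over Normal for the 59 bright probes in rank order, with the members in colour and their 95% limma intervals. Right, the same change of each member on the deposited values, with an intensity trend, and under 4 scalings between arrays, where every interval holds 0.

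Over the 10 arrays, the levels of oar-miR-103 and oar-miR-107 moved closely together, while that of oar-miR-16b varied largely apart from them. The ratio of oar-miR-107 to oar-miR-103 was 1.07 on the Normal and 1.10 on the Fibrosis side of sheep 2. It was 1.10 and 1.10 for sheep 3, 1.05 and 1.06 for sheep 6, 1.09 and 1.08 for sheep 7, and 1.02 and 1.08 for sheep 10. The SD of this log2 ratio over the 10 arrays was 0.036, whereas the spreads of both probes would give 0.17 if they shared nothing. It was the smallest among the 1711 pairs of bright probes, whose median was 0.62. The next pairs were oar-miR-106a with oar-miR-17-5p at 0.072 and oar-let-7a with oar-let-7d at 0.074, each from 1 seed family. After them came oar-miR-200a with oar-miR-21 at 0.12 and oar-miR-25 with oar-miR-99a at 0.13, which are not from 1 family. Whether the probe for oar-miR-103 or oar-miR-107 also bound the other miRNA was not tested. The levels of oar-miR-103 and oar-miR-107 are therefore uncertain as separate measurements.

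For oar-miR-16b over oar-miR-103 the SD of the log2 ratio over the 10 arrays was 0.17, the same size as the 0.17 that both spreads give alone. Within sheep the members were less separate. The SD of the 5 differences was 0.13 for this log2 ratio, below the 0.15 of oar-miR-16b and the 0.16 of oar-miR-103. Only in sheep 3 did oar-miR-16b (-0.11) and oar-miR-103 (0.076) differ in the sign of their change. On the log2 scale the ratio differed, Fibrosis minus Normal, by -0.19 for sheep 2, -0.18 for sheep 3, 0.10 for sheep 6, 0.040 for sheep 7 and -0.011 for sheep 10. The log2 ratio stood highest in the Normal segment of sheep 2, where oar-miR-103 was lowest. Relative to oar-miR-103, oar-miR-16b had a log2 fold change of -0.049 (limma SE 0.15, adjusted p = 0.896 over 151 probes, 95% interval -0.43 to 0.33). Relative to oar-miR-107 it was at -0.074 (limma SE 0.16, adjusted p = 0.788, interval -0.45 to 0.31). oar-miR-107 relative to oar-miR-103 was at 0.024 (limma adjusted p = 0.921), for which the spread of the 5 differences alone gives an SE of 0.018 and the pooled one of limma 0.15. It was higher in 3 of 5 sheep (exact permutation p = 0.25). A difference between the members in their response was thus not detected, and the intervals above give the sizes that remain possible.

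**Figure D4:**
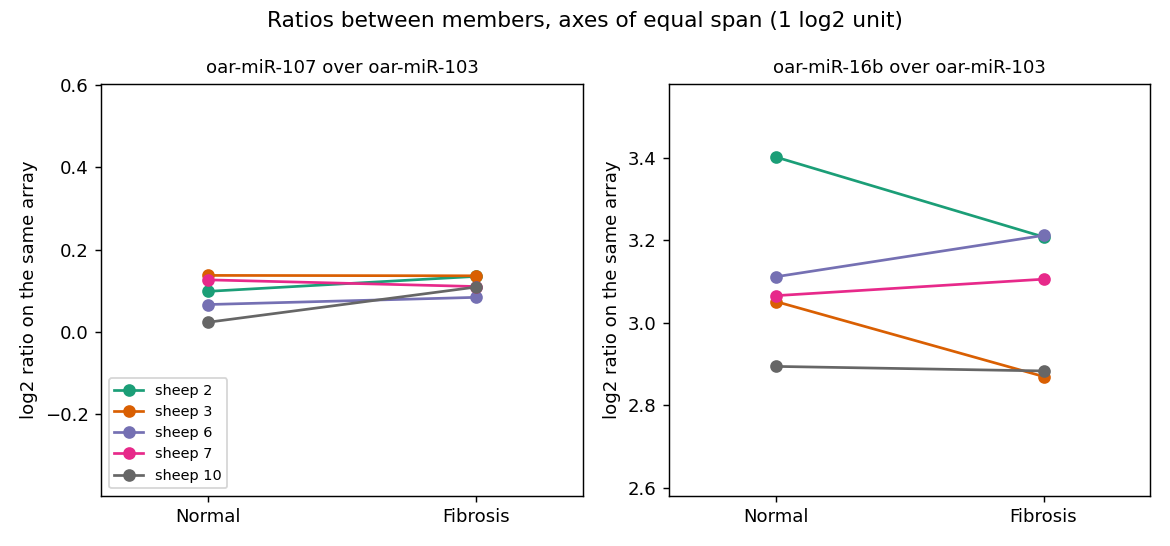
log2 ratio on the same array of oar-miR-107 over oar-miR-103 (left) and of oar-miR-16b over oar-miR-103 (right) in both segments of 5 sheep, on axes that each span 1 log2 unit. The left lines lie close together (SD 0.036 over 10 arrays) and the right ones are spread (SD 0.17).

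By the SD of the log2 ratio over the 10 arrays, the bright probes most like oar-miR-16b were oar-miR-103 (0.1693), oar-miR-23b (0.1697) and oar-miR-107 (0.1703). For oar-miR-103 they were oar-miR-107 (0.036), oar-miR-17-5p (0.16) and oar-miR-16b (0.17). For oar-miR-107 they were oar-miR-103 (0.036), oar-miR-16b (0.17) and oar-miR-17-5p (0.17). miR-23b is made from a cluster with miR-27b and miR-24, and miR-17-5p belongs to the miR-17-92 cluster, which promotes proliferation. Beyond the closest pair, neighbours in these orders differed in the second decimal or less. A small SD of the ratio can also come from small spreads of both probes. The Pearson correlation of oar-miR-16b over the 10 arrays was 0.030 with oar-miR-103, 0.098 with oar-miR-107 and 0.50 with oar-miR-23b.

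A reference shifts every miRNA measured against it by its own change. The 4 miRNAs that the study examined by qPCR were set against each member on the array. They are miR-29a, which restrains collagen genes, miR-26a and miR-30a-5p, both known for acting against fibrotic signalling, and miR-21, a miRNA that promotes fibrosis. The mean log2 difference of oar-miR-26a was -0.22 without a reference, -0.27 against oar-miR-16b, -0.31 against oar-miR-103 and -0.34 against oar-miR-107. It was lower in all 5 sheep in each case (two-sided exact permutation p = 0.0625, the smallest possible). Against oar-miR-103 the 5 differences were -0.38 for sheep 2, -0.28 for sheep 3, -0.38 for sheep 6, -0.26 for sheep 7 and -0.27 for sheep 10. The SD of the 5 differences of oar-miR-26a was 0.12 without a reference, 0.14 against oar-miR-16b, 0.064 against oar-miR-103 and 0.077 against oar-miR-107. No other of the 56 bright probes outside the group had a smaller SD against any of the 3 members, and 2 had one without a reference. The limma adjusted p of oar-miR-26a was 0.546, 0.484 and 0.498 against oar-miR-16b, oar-miR-103 and oar-miR-107. Against oar-miR-103 the spread of the 5 differences alone gives an SE of 0.028, and the pooled one of limma is 0.15.

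oar-miR-29a had a mean log2 difference of -0.19 without a reference and of -0.23, -0.28 and -0.31 against oar-miR-16b, oar-miR-103 and oar-miR-107. It was lower in 5 of 5 sheep without a reference and against oar-miR-107, and in 4 of 5 against oar-miR-16b and oar-miR-103, where sheep 10 was at 0.074 and 0.063. For oar-miR-30a-5p the mean was -0.25 without a reference and -0.29, -0.34 and -0.36 in the same order, lower in 5 of 5 sheep each time. Sheep 2 had its lowest value, at -0.55 without a reference and at -0.89 against oar-miR-103. For oar-miR-21 the mean was 0.73 without a reference and 0.69, 0.64 and 0.61 with the members. It was higher in 5 of 5 sheep without a reference but in 4 of 5 against each member, since sheep 6 was at 0.075 without one and at -0.14, -0.038 and -0.055 with them. The limma adjusted p of these 3 miRNAs against the members lay between 0.434 and 0.546. All 4 were compared on the same segments as the members, so these values are not independent of the changes above.

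**Figure D5:**
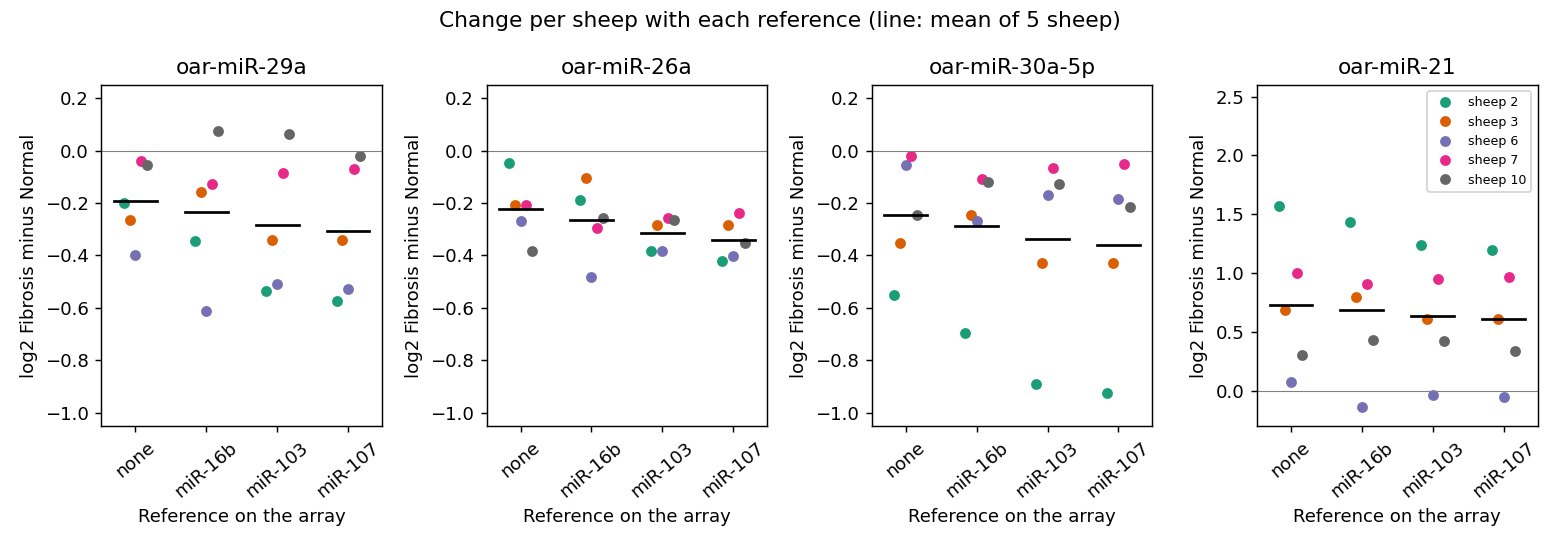
log2 difference of Fibrosis minus Normal in each of 5 sheep for the 4 miRNAs examined by qPCR, without a reference and with each member as reference on the same array, where the line marks the mean. The last panel has its own scale. The means shift downward from none to oar-miR-107 in all 4 panels, and the points of oar-miR-26a lie closest together against oar-miR-103.

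Over the 56 bright probes outside the group, dividing by a member made the within-sheep differences more variable for most. The SD of the 5 differences was larger for 42 and smaller for 14 of the 56 with oar-miR-16b as reference. With oar-miR-103 it was larger for 35 and smaller for 21, and with oar-miR-107 larger for 38 and smaller for 18. The median SD was 0.35 without a reference and 0.41, 0.42 and 0.43 with oar-miR-16b, oar-miR-103 and oar-miR-107. Any single probe used as reference brings in its own spread, and no other bright probe was tried as one. Whether these counts are particular to the members was therefore not tested. An adjusted p under 0.05 in limma was reached by 0 of 151 probes (0%) with each member as reference. Unadjusted, 14 (9.27%) had p under 0.05 against oar-miR-16b, 15 (9.93%) against oar-miR-103 and 15 (9.93%) against oar-miR-107.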

How the data were processed

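Small RNA of both caudal segments of 5 sheep was labelled with Cy3 and hybridised to a custom array, which held 55 control probes beside the 152 ovine ones. The authors deposited, for every array, the background-corrected intensity of each probe as a mean of 21 spots. Their methods describe log2 transformed data, but the deposited intensity values were linear, and no scaling between arrays is named. The scanner software was not given in the sources used here. The number of arrays limits the precision.

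Values under 1 were raised to 1 before taking log2. The fit over every probe used limma 3.58.1 (lmFit, eBayes; R 4.3.3), with condition as the factor and sheep as the block because both segments are from 1 animal. p was adjusted by Benjamini-Hochberg over all probes tested. Across probes, the paired segments deviated from the group means with a correlation of 0.34, 0.90, 0.40, -0.67 and 0.56 in sheep 2, 3, 6, 7 and 10. Ratios to a member were fitted alike. Single probes were also tested by exact sign flips over the sheep. The fit was tested on simulated data.

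The members and lists were chosen with earlier results of these data known. Named were the members, the 4 qPCR miRNAs, the 3 bright probes most like each member, listed reference miRNAs, and others after their values were seen. The part of that rule that needs mature sequences was not used here. Alternatives were 4 scalings, no block, side, left against right, a filter on dim probes, a floor of 32, an intensity trend, Student's test over the 5 sheep, paired and unpaired, and leaving out each sheep. The study's own Student's test was run inside each sheep on the spots, which were not analysed here, so it is another test.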

Additional observations from a re-analysis of the deposited data

How the results depend on the processing

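No miRNA had an adjusted p under 0.05 in limma or by Student's test over the 5 sheep under any alternative run. At an unadjusted p under 0.05 the count was 18, against 8 with no replicate block, 3 for left against right, 9 among the bright probes, 7 with a floor of 32, and 9 and 6 by Student's test paired and unpaired, and it ran from 6 to 26 with 1 sheep left out (8 without sheep 2, 6 without sheep 3, 26 without sheep 6, and 10 without sheep 7 or without sheep 10). At an unadjusted p under 0.01 it was 0, against 1 with no replicate block, 1 with the 75th percentile, 3 after quantile normalization, 3 with control probes, 1 among bright probes, 1 with a floor of 32, 2 with an intensity trend, 1 and 2 by Student's test paired and unpaired, and 0 to 2 with 1 sheep left out. The replicate block changed no call of a member.

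The change of oar-miR-16b was below 0 with the miRNA median (-0.11), after quantile normalization (-0.23) and without sheep 6, and ran from -0.00055 to 0.085 with 1 sheep left out. Its difference of left minus right segment, which is another contrast than Fibrosis over Normal, was -0.027. oar-miR-103 (-0.064) and oar-miR-107 (-0.039) were below 0 with the miRNA median, and ran from 0.030 to 0.14 and from 0.051 to 0.15 with 1 sheep left out. With side as a covariate the members were at 0.038, 0.11 and 0.13. The changes of members and qPCR miRNAs relative to a member kept their direction with no replicate block, with side and with each sheep left out. The cause of these shifts was not tested.

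The number of bright probes with a smaller SD than oar-miR-16b was 1, than oar-miR-103 was 0 and than oar-miR-107 was 2. For oar-miR-16b it was 0 with the miRNA median, 5 with the 75th percentile, 9 after quantile normalization, 24 with control probes, 3 among all 152 probes, 0 among the 30 probes whose mean log2 signal reached 10, 5 by within-sheep differences and 0 by ratios. For oar-miR-103 it was 4, 3, 1 and 26 under these scalings, 2 among all probes, 7 by within-sheep differences and 1 by ratios. For oar-miR-107 it was 1, 4 and 28 with the miRNA median, 75th percentile and control probes, 4 among all probes, 1 among those that reached 10, and 6 by within-sheep differences. With 1 sheep left out these counts ran from 1 to 2, from 0 to 2 and from 1 to 4.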

Other observations

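After the members, the bright probes with the smallest SDs of the log2 signal over the 10 arrays were oar-miR-17-5p (0.15) and oar-miR-106a (0.16), relatives that share a seed and promote proliferation. They were followed by oar-miR-191 (0.17), oar-miR-26a (0.17) and oar-miR-23b (0.19). These 5 were picked after their values were seen. Unlike the members they all had a mean log2 change below 0 on the deposited scale, with -0.082 for oar-miR-17-5p, -0.097 for oar-miR-106a, -0.16 for oar-miR-191, -0.22 for oar-miR-26a and -0.078 for oar-miR-23b. Of the 59 bright probes, 32 had a mean change below 0. oar-miR-26a, lower in the Fibrosis segment of all 5 sheep, was thus both among the steadiest probes over the arrays and 1 of 21 probes (13.8% of 152) with 1 direction in every sheep. The mean of the 3 members' log2 signals had an SD of 0.093 over the 10 arrays, below that of each member alone. By the SD of the 5 within-sheep differences the mean gained little, with 0.14 against 0.15 for oar-miR-16b, 0.16 for oar-miR-103 and 0.16 for oar-miR-107.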
